A study of Mus musculus with 3 samples.

Results

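The 9 genes described here belong to the NLRP3 inflammasome of macrophages, the inflammatory cell death linked to it and the interleukin-1 family. They were taken by symbol from the platform annotation out of 19938 genes measured. They are Nlrp3 and Pycard (sensor and adaptor), Casp1 and Casp4 (inflammatory caspases), Gsdmd (pore former), Il1a, Il1b and Il18 (cytokines) and Il1rn (receptor antagonist). All 9 had a single probe set, and all 9 gene identifiers carried the same symbol in the RefSeq gene table. Expression was measured on 3 Affymetrix arrays, 1 per condition, each with RNA pooled from 3 samples of cultured peritoneal macrophages of male Angptl4-/- mice (C57Bl/6J, age not given). All groups therefore lack Angptl4, all mice had received 1 mL of 4% thioglycollate, a sterile irritant, 3 days before lavage, and all cells had been cultured for 2 days. The groups were PBS for 6 h, intralipid (a triglyceride emulsion) at 0.5 mM for 6 h, and the same intralipid exposure with recombinant ANGPTL4, an inhibitor of lipoprotein lipase, at 2.5 µg/mL, which was added 1.5 h earlier. No array of wild-type cells was analysed here. Whether the PBS and intralipid cultures had a mock pre-incubation is not stated.

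Inflammasomes are assembled in the cytosol of macrophages after damage or infection. NLRP3 senses a disturbed cell, often by way of potassium efflux, and recruits caspase-1 through the adaptor ASC, the product of Pycard. Caspase-1 matures the precursors of IL-1β and IL-18 and cleaves gasdermin D, whose fragments form pores in the plasma membrane. Casp4 encodes mouse caspase-11, which is activated by cytosolic lipopolysaccharide and also cleaves gasdermin D. IL-1α binds the same receptor as IL-1β without needing caspase-1, and the receptor antagonist occupies that receptor without signalling. In macrophages Nlrp3 and Il1b are classic genes of the priming step, in which transcription precedes activation. Arrays measure transcripts only, so assembly, cleavage and secretion were not measured.

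A gene is said to pass the floor where its log2 value reached the median of all annotated probe sets on that array (4.98, 4.97 and 4.97 on the arrays with PBS, intralipid, and intralipid plus ANGPTL4). Of the 9 genes, 7 passed it on all 3 arrays, Il1b passed it with ANGPTL4 only, and Il18 did not pass it. A gene was called apart where 2 arrays differed at least 2-fold and the higher value passed the floor. With 1 array per group no test was possible, no replicate error could be given, and "higher" and "lower" describe these arrays alone. As the only available yardstick, the robust SD of the log2 difference over genes of like expression is given. It describes the spread over genes and holds no spread between cultures. Many genes past the floor had exactly equal values on the 2 arrays compared. They were 3227 of 10049 for intralipid against PBS and 3083 of 10064 for intralipid plus ANGPTL4 against intralipid alone. For intralipid plus ANGPTL4 against PBS they were 4016 of 9995. Such ties narrow the robust SD, so a difference of many robust SDs is no measure of certainty. The number of arrays limits the precision.

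Macrophage markers passed the floor on every array (8 of 8), with a summed linear level of 22440, 23730 and 23720 on the arrays in the order above. The highest markers, Lyz2 and Cd68, weigh most in this sum. Lyz2 had equal values on all 3 arrays, so the sum is a poor gauge of macrophages. Neutrophils also make IL-1 and its antagonist. Of 10 neutrophil markers only S100a8 passed the floor, at a log2 value of 5.86 on all 3 arrays, and the summed level of the list was 165, 165 and 163. Values equal on all 3 arrays were held by 41.4% of probe sets, so they do not show a steady level. The neutrophil sum includes the markers below the floor, so it is a poor gauge of neutrophils. Of 7 fibroblast and mesothelial markers 5 passed, with sums of 2335, 2317 and 2308. Col3a1 and Dcn among them were equal on all 3 arrays, so these sums show no steady level either. Of the markers of mast cells (5 measured), B cells (4) and T or NK cells (5), 0 passed the floor. Dendritic cells had 1 of 6 (Clec9a, with intralipid only) and eosinophils 1 of 5 (Siglecf). Within the macrophage list Cd14, the lipopolysaccharide co-receptor, was not level, with log2 values of 9.07, 11.17 and 10.34. Fcgr1, an Fc receptor of the same list, read 9.54, 9.07 and 8.53 and was called lower with ANGPTL4 against PBS (2.01-fold). Csf1r, the receptor for the growth factor CSF1, read 10.87, 10.59 and 11.38. The part of cell composition in the results was not tested, and in pooled cultures fewer cells of a type and less RNA per cell cannot be told apart. Angptl4 itself read 4.92 on each array, below the floor.

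The 9 genes did not follow a common pattern. Il1a, Nlrp3 and Il1rn were highest with intralipid alone. Pycard and Casp1 were lowest there. Casp4 was highest with intralipid plus ANGPTL4, Gsdmd varied little, and Il18, below the floor, was identical on all arrays. Il1b passed the floor only with intralipid plus ANGPTL4, so no pattern is read from it.

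**Figure D1:**
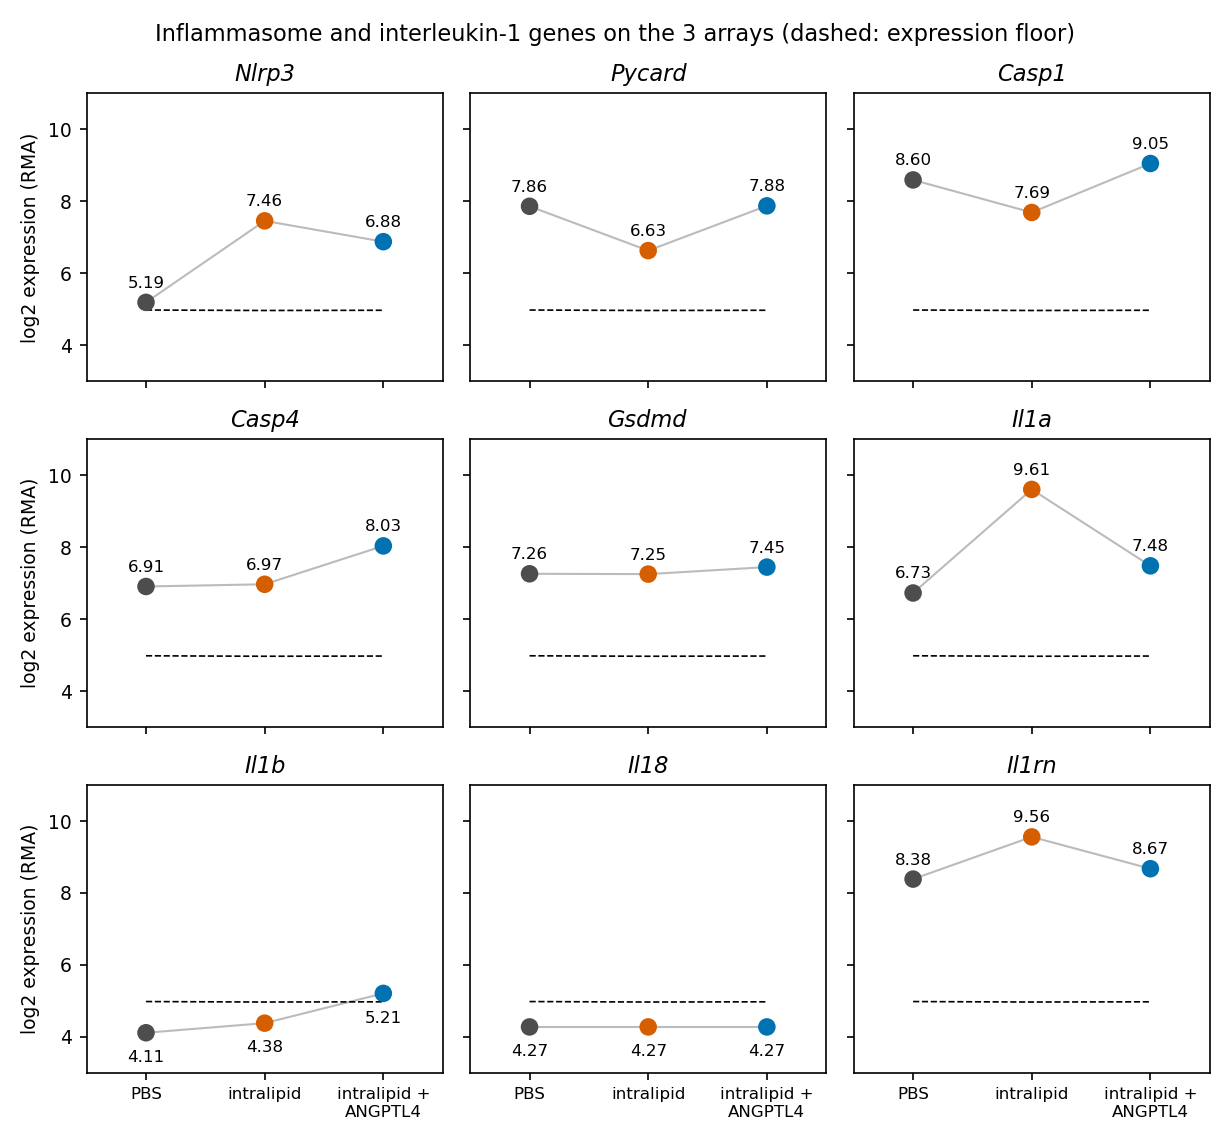
Log2 expression (RMA, vertical axis) of each of the 9 genes on the arrays with PBS, intralipid, and intralipid plus ANGPTL4 (horizontal axis), 1 point per array, with the expression floor as a dashed line. Il1a peaks at 9.61 with intralipid, Pycard dips to 6.63 there, and Il18 stays at 4.27.

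The RefSeq promoter windows (GRCm38.p6) of the genes were searched over the 250 bases before each annotated start. The table held 12 windows for 8 of the genes (Gsdmd had none). Below are windows of Il1a and Il1rn, the only 2 of the genes with an AP-1 match, of Nlrp3, of Pycard and of Casp4. The Casp4 windows held the most NF-kB matches. Capitals mark matches on either strand to NF-kB (GGG and CC with any 5 bases between them), AP-1 (TGANTCA), the CRE core (TGACG), C/EBP (TTNNGNAA) and the TATA box (TATAAA). Each runs 5′ to 3′ along the gene's own strand.
Il1a, chr2:129309973-129310222, minus strand: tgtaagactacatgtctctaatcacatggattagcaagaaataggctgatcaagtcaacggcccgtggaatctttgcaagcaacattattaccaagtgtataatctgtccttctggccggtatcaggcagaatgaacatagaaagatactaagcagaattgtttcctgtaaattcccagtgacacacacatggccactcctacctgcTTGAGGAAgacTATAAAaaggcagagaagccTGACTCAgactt
Il1rn, the first of 3 starts in the table, chr2:24336610-24336859, plus strand: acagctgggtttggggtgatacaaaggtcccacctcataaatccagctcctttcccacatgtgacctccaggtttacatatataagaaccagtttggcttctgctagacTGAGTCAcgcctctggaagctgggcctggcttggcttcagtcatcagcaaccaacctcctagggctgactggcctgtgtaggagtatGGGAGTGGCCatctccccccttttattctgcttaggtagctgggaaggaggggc
Nlrp3, the second of 2 starts, chr11:59541319-59541568, plus strand: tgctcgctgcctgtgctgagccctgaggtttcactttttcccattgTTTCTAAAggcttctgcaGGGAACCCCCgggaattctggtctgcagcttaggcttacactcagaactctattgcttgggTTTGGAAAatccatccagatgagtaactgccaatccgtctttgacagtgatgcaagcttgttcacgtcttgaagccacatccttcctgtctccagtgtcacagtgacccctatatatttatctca
Pycard, chr7:127993868-127994117, minus strand: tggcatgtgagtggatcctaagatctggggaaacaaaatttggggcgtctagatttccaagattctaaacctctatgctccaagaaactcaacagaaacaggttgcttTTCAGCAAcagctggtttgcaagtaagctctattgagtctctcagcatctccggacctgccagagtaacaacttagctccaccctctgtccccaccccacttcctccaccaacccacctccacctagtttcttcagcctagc
Casp4, the first of 2 starts, chr9:5308599-5308848, plus strand: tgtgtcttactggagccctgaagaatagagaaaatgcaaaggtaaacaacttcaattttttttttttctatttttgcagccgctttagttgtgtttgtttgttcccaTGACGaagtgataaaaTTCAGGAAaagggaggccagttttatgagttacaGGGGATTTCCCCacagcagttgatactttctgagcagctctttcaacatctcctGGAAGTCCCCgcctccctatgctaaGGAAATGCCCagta

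Il1a carried a TATA box at -32 to -27 from its start and an AP-1 match at -12 to -6. Il1rn carried its AP-1 match at -141 to -135 in the window shown, and its other windows had 0. Nlrp3, which was also highest with intralipid, had 0 AP-1 matches in either window. AP-1 matches occurred in 2 of the 12 windows here and in 6.75% of all 32851 windows of the table. The Casp4 window held 3 separate stretches with NF-kB matches (6 overlapping or opposite-strand matches in all), at -93 to -82, -39 to -30 and -14 to -5. The NF-kB letters are loose and occurred in 45.8% of all windows. Matches also lay in the Nlrp3 window shown and in windows of Casp1 and Il1rn, so 6 of the 12 windows (4 of 8 genes) had one. The other Nlrp3 window, not shown, had 0 NF-kB matches. The C/EBP letters were in 36.8% of all windows and in 9 of the 12 windows here (6 of 8 genes). The CRE core (17.8%) was in 2 windows, both of Casp4. The TATA box letters (12.4%) were in 3 windows. In Il1a and Il1b they lay on the gene's own strand, in Il1b at -31 to -26. In Il18 they lay on the opposite strand, at -175 to -170. Windows of 1 gene can overlap, as those of Casp4 do, so these window counts are not independent. The ETS core GGAA, left in lower case, was in all 12 windows and in 93.4% of the table. A match describes letters and shows no binding, and a link between matches and expression was not tested.

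**Figure D2:**
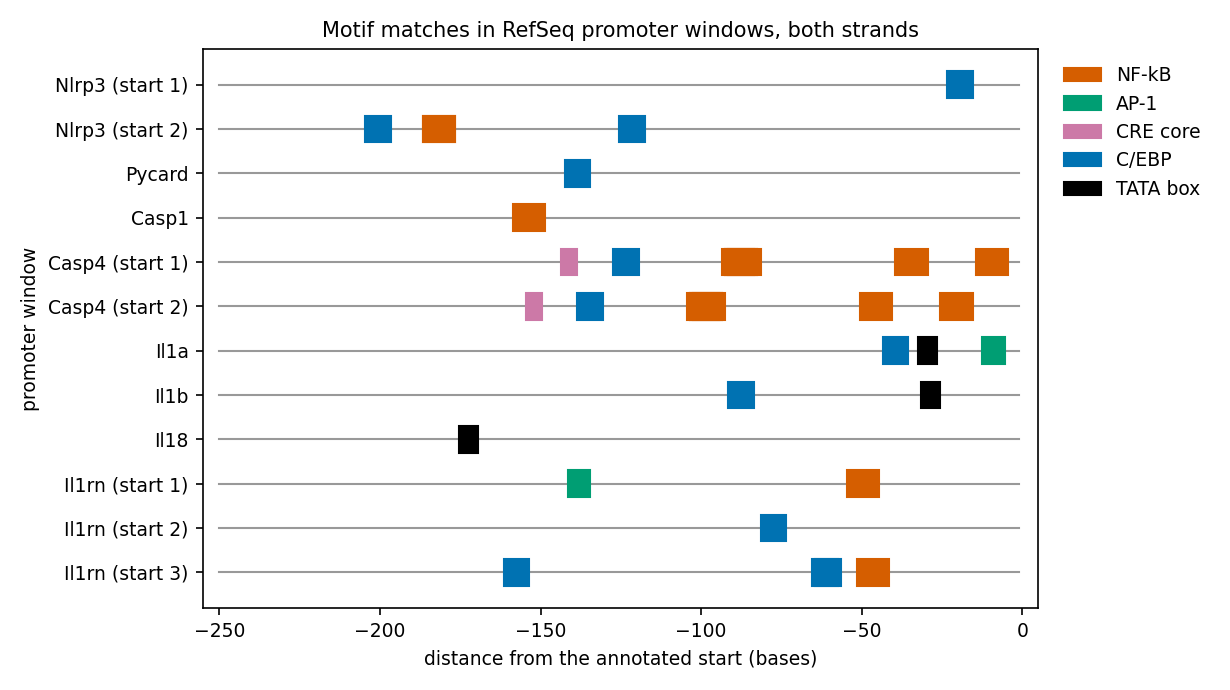
Positions of motif matches (coloured boxes, both strands, ETS core left out) in the 12 promoter windows of 8 of the genes, with the distance from the annotated start in bases on the horizontal axis. AP-1 matches appear only in windows of Il1a and Il1rn, and the 2 Casp4 windows, which overlap, show 3 NF-kB stretches each.

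Intralipid was first set against PBS, which asks how these genes stood under a lipid load. Il1a, Nlrp3 and Il1rn were at least 2-fold higher and Pycard at least 2-fold lower, while Casp4 and Gsdmd were nearly level. So 3 of 9 genes were called higher and 1 lower (7 of the 9 passed the floor on at least 1 of the 2 arrays). Of all 10049 genes past the floor there, 2.51% were called higher and 1.32% lower. The median log2 difference was 0.06 over the 9 genes and 0.00 over all 19938 genes, values below the floor included in both. That 0.00 rests on many exact ties. Of the 10049 genes past the floor, 4465 were lower with intralipid and 2357 higher, by any amount. Lower was thus the more common direction.

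Nlrp3 (probe set 10376513), the sensor, read 5.19 with PBS, just above the floor, 7.46 with intralipid and 6.88 with intralipid plus ANGPTL4. The PBS array was low and both lipid arrays were high. Intralipid alone was 4.81-fold above PBS, a log2 difference of 2.27 where genes of like expression had a robust SD of 0.19, and 52 genes had a larger positive difference. Pycard (probe set 10568355), the adaptor, ran the other way. Its log2 values were 7.86, 6.63 and 7.88, so the intralipid array alone was low. The difference from PBS was 2.35-fold (log2 difference -1.23, robust SD 0.25), and 54 genes had a more negative one. Sensor and adaptor thus lay on opposite sides of PBS under intralipid.

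Casp1 (probe set 10582985), the caspase that the adaptor recruits, read 8.60, 7.69 and 9.05. It was lowest with intralipid, 1.87-fold below PBS, and was not called (log2 difference -0.90, robust SD 0.26). Casp4 (probe set 10582997), whose gene lies next to Casp1 in the RefSeq table, read 6.91, 6.97 and 8.03. Its intralipid and PBS values were close, at a log2 difference of 0.06 inside the robust SD of 0.23. Both caspases belong to a family of similar genes, and where their probes lie was not known here. Gsdmd (probe set 10424731), the common substrate of both caspases, read 7.26, 7.25 and 7.45. Its difference between intralipid and PBS was -0.01 on the log2 scale.

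Il1a (probe set 10487588) showed the largest difference of the 9 genes, with log2 values of 6.73, 9.61 and 7.48. The intralipid array stood well above the other two. It was 7.36-fold above PBS (log2 difference 2.88, robust SD 0.30), and only 23 of the 10049 genes had a larger positive difference. Il1b (probe set 10487597), the neighbour of Il1a in the RefSeq table, read 4.11, 4.38 and 5.21. It lay below the floor with PBS and with intralipid, so no fold between those 2 arrays is given. Il18 (probe set 10585194) read 4.27 on each array, below the floor. Identical values on all 3 arrays were held by 41.4% of the 35556 probe sets, so this is no measure of a steady level. Il1rn (probe set 10469816), the antagonist of both IL-1 cytokines, read 8.38, 9.56 and 8.67. It was 2.26-fold higher with intralipid than with PBS (log2 difference 1.17, robust SD 0.27), in the same direction as Il1a.

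Intralipid plus ANGPTL4 was then set against intralipid alone, to ask whether the added protein was accompanied by another state of these genes under lipid. Pycard, Casp1 and Casp4 were at least 2-fold higher with ANGPTL4, and Il1a was at least 2-fold lower. The intralipid array enters this comparison with the opposite sign to the one before, so an error on it would move both. Again 3 of 9 genes were called higher and 1 lower (8 of the 9 passed the floor), against 2.53% and 2.30% of 10064 genes. The median log2 difference was 0.19 over the 9 genes and 0.00 over all genes measured. Of the 10064 genes past the floor, 4662 were higher with ANGPTL4 and 2319 lower, by any amount. Higher was thus the more common direction.

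The adaptor and both caspases were each higher with ANGPTL4 than with intralipid alone, but their patterns differed. Pycard and Casp1 were lowest on the intralipid array, whereas Casp4 was near its PBS value there. Relative to intralipid alone, Casp1 was 2.57-fold higher (log2 difference 1.36, robust SD 0.29), Pycard 2.37-fold (1.24, robust SD 0.26) and Casp4 2.10-fold (1.07, robust SD 0.24). Larger positive differences were held by 98 genes for Casp1, 131 for Pycard and 217 for Casp4. Casp4 lay close to the 2-fold threshold. Gsdmd was 1.15-fold higher, at a log2 difference of 0.19 inside the robust SD of 0.24.

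Relative to intralipid alone, Il1a was 4.36-fold lower with ANGPTL4 (log2 difference -2.13, robust SD 0.31), and 52 genes had a more negative difference. Il1rn was 1.85-fold lower (-0.88, robust SD 0.30) and was not called. Nlrp3 was 1.49-fold lower (-0.58, robust SD 0.22) and was not called either. Il1b was 1.78-fold higher by its values. With the intralipid value raised to the floor that difference was 1.18-fold, so it rested on values near background.

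**Figure D3:**
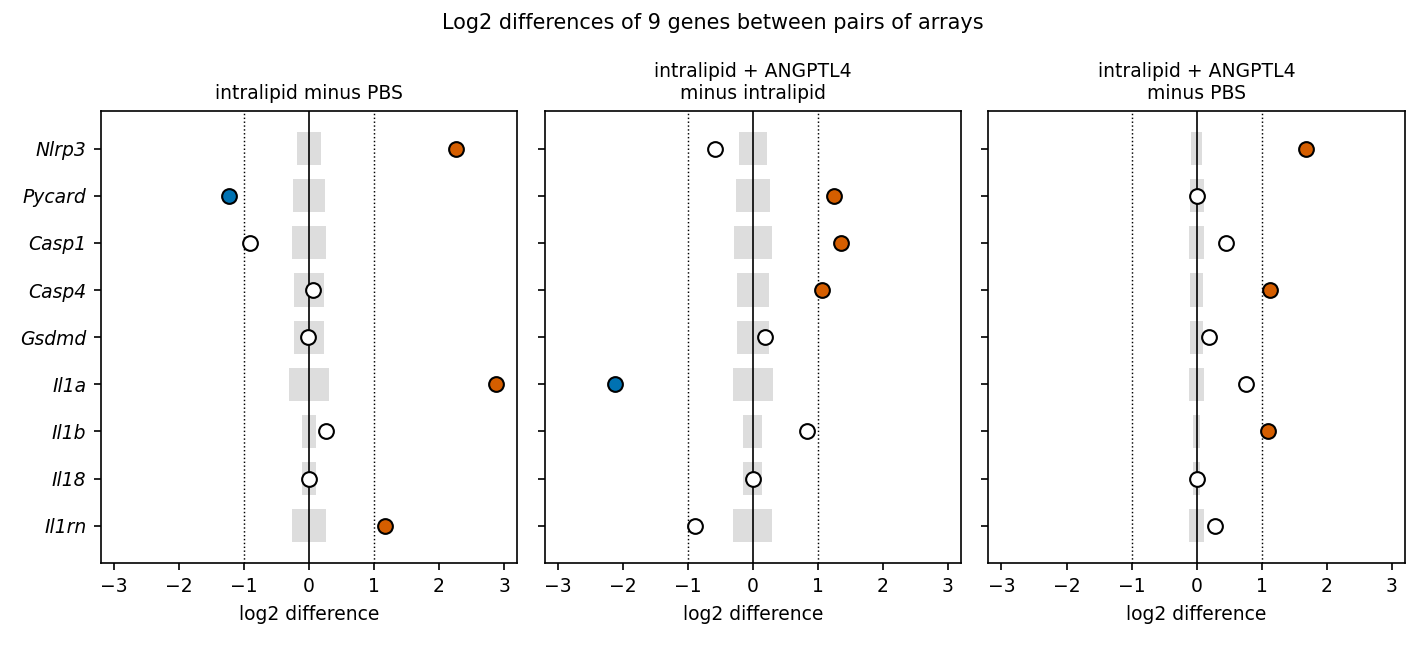
Log2 differences (horizontal axis) of the 9 genes (rows) for the 3 pairs of arrays. Filled points were called (orange higher, blue lower), dotted lines mark 2-fold, and grey bars span ± 1 robust SD over genes of like expression. Il1a lies at 2.88 in the first panel and at -2.13 in the second, and Nlrp3 stays past 2-fold in the first and last.

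Set against PBS, the array with intralipid plus ANGPTL4 shows which of these genes stood apart from unexposed cells when both agents were present. Nlrp3 and Casp4 were called higher with both arrays past the floor, and 0 of the 9 genes were lower (8 passed the floor on at least 1 array). Il1b also met the rule, but passed the floor only on the array where it was high, so nothing is read from its call. Fewer genes were called in this pair than in the others, 0.85% of 9995 higher and 0.04% lower. The median log2 difference was 0.46 over the 9 genes and 0.00 over all genes measured. Of the 9995 genes past the floor, 3539 were higher and 2440 lower, by any amount. This comparison shares its arrays with both others, so its values add no independent measurement.

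Nlrp3 was 3.22-fold above PBS (log2 difference 1.69, robust SD 0.09), and 21 of 9995 genes had a larger positive difference. Its level with ANGPTL4 lay nearer to intralipid alone than to PBS. Il1a and Il1rn, which were high with Nlrp3 on the intralipid array, lay nearer to PBS. Il1a was 1.69-fold (0.75, robust SD 0.11) and Il1rn 1.22-fold (0.29, robust SD 0.12) above PBS, neither called. Casp4 was 2.19-fold above PBS (1.13, robust SD 0.10), with 64 genes above it, although it was level with intralipid alone. Casp1 was 1.37-fold above PBS (0.46, robust SD 0.12), and Pycard differed from PBS by 0.01 on the log2 scale. Il1b was 2.14-fold above PBS by its values and 1.17-fold with PBS raised to the floor. Gsdmd was 1.14-fold higher (0.19, robust SD 0.10).

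Other genes of the pathway were taken from 6 lists with 63 symbols, of which 51 were measured. Against PBS, intralipid had 2 of 38 genes past the floor called higher (5.26%) and 1 lower (2.63%), beside 2.51% and 1.32% of all genes past the floor. With ANGPTL4 against intralipid, 4 of 39 were higher (10.3%) and 1 lower (2.56%), beside 2.53% and 2.30%. With ANGPTL4 against PBS, 1 of 38 was higher (2.63%) and 0 lower, beside 0.85% and 0.04%. Counts this small are a description of the lists, and Mefv and Il33 passed the floor only on the array where they were high. The median log2 differences were -0.02, 0.02 and 0.02 in that order.

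Among the other inflammasome sensors (7 of 9 measured past the floor), 1 was called with ANGPTL4. Mefv, which encodes the sensor pyrin, read 4.80, 4.64 and 6.36. It passed the floor with ANGPTL4 alone, 3.28-fold above intralipid or 2.62-fold with the intralipid value raised to the floor. Nlrc4, which responds to bacterial flagellin through NAIP proteins, read 6.01, 5.89 and 6.76 and was not called. Aim2, the sensor of cytosolic DNA, read 7.67, 7.58 and 7.67. Naip2, Naip5 and Naip6 belong to a family of similar genes whose signals may mix, and none was called. Naip1 and Nlrp12 were not analysed here.

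Of the regulators of NLRP3 (10 of 12 past the floor), Kcnk6 was the only one called. It encodes TWIK2, a potassium channel that carries the efflux upstream of NLRP3, and read 7.92, 6.60 and 7.78. It was 2.50-fold lower with intralipid than with PBS and 2.27-fold higher with ANGPTL4 than with intralipid, low on the intralipid array as Pycard was. Panx1, a membrane channel, read 6.41, 5.74 and 6.72, and P2rx7, the ATP receptor that opens this pathway, 8.46, 8.04 and 8.58. Neither was called. Nek7, the kinase that bridges NLRP3 subunits, read 9.51, 9.45 and 9.48. Of the cell death and pore genes (6 of 8 past the floor) 0 were called, among them Ninj1, which ruptures the membrane of dying cells, at 10.28, 10.73 and 10.57.

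Of the other IL-1 family ligands, Il33 passed the floor, on the intralipid array only. IL-33 is an alarmin that signals through the receptor ST2, and its log2 values were 3.94, 5.88 and 4.36. It was higher with intralipid than with PBS by 3.84-fold, or 1.86-fold with PBS raised to the floor. Fibroblasts can make IL-33, and the cell source of this signal was not tested. Il36a, Il36b, Il36g and Il36rn were not analysed here. The receptors and decoys (4 of 9 measured past the floor) had 0 genes called. Il18bp, a soluble decoy for IL-18, read 6.61, 7.04 and 6.40, and Il1rap, the shared co-receptor, 6.46, 6.36 and 6.55. Il1r1 was not analysed here.

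Downstream of the IL-1 receptor, 11 of 11 measured genes passed the floor. Myd88, the adaptor of IL-1 and Toll-like receptors, read 8.63, 7.85 and 9.22, and its ANGPTL4 value was 2.58-fold above that of intralipid alone. Irak2, a kinase of the receptor complex, read 7.86, 8.96 and 8.19, and was 2.15-fold higher with intralipid than with PBS. Irak3, which restrains this signalling, read 8.41, 8.14 and 9.14. Its difference between both lipid arrays lay at the 2-fold threshold, and it was not called after quantile or cyclic loess normalization. Peli1, a ubiquitin ligase of the complex, read 8.48, 8.43 and 9.29 and was not called.

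**Figure D4:**
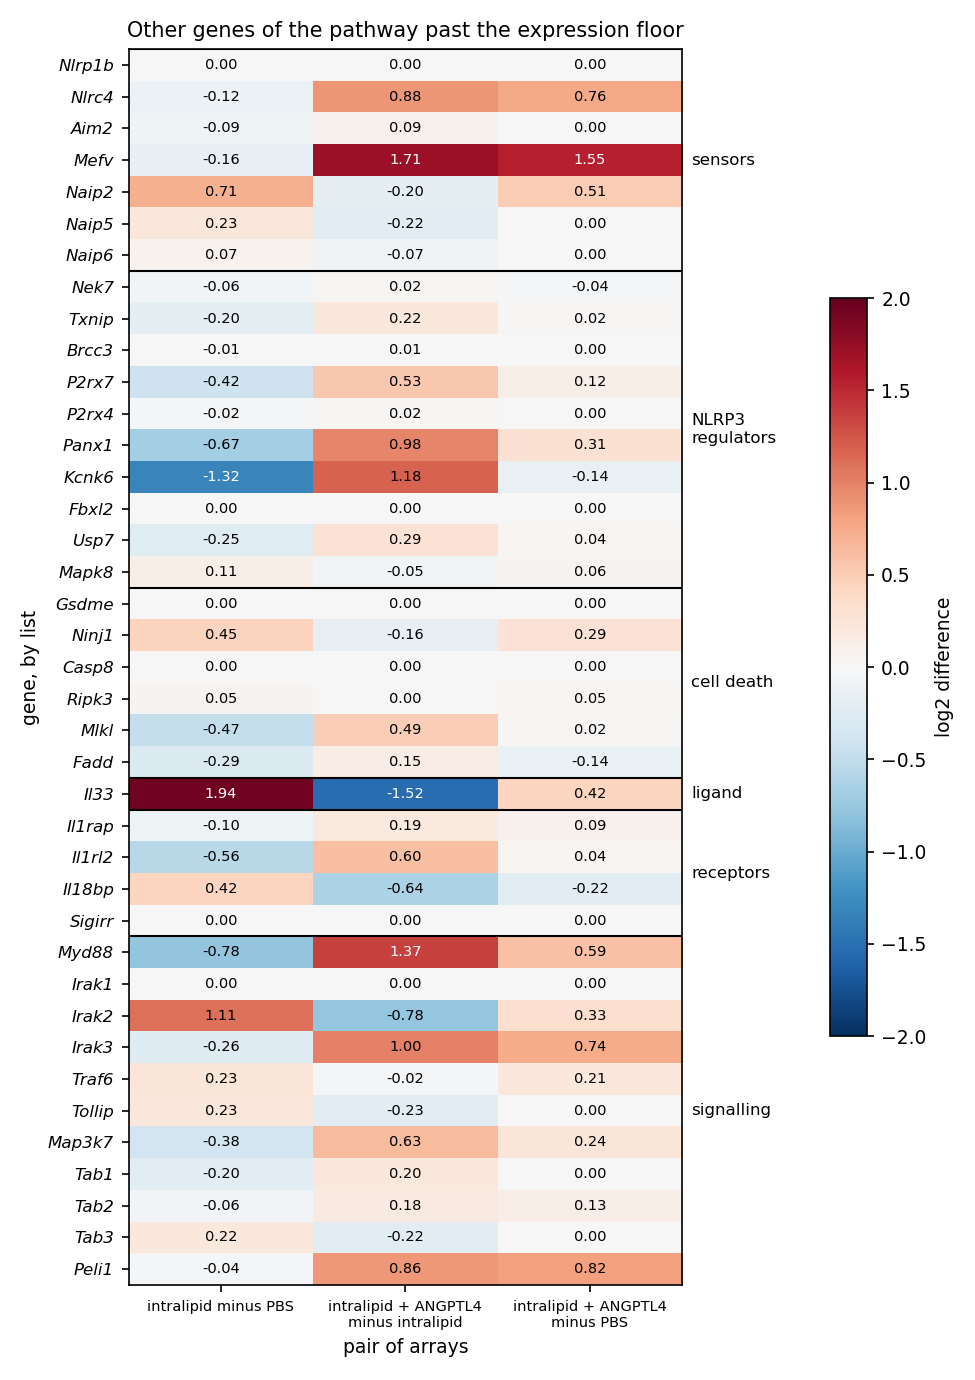
Log2 differences (numbers and colour) of the pathway genes that passed the floor on at least 1 array (rows, grouped by list) for the 3 pairs of arrays (columns). Mefv stands at 1.71 with ANGPTL4 against intralipid and Il33 at 1.94 with intralipid against PBS. Both passed the floor only on the array where they were high, so these differences rest partly on values near background. Many genes lie near 0.

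The genes most like each called gene were found by the Euclidean distance between their log2 differences in the first 2 comparisons. The search covered 3 arrays and 9663 other genes past the floor on at least 1 array. This is a description of 3 arrays, and many genes lie close to a modest pattern. Nlrp3 had 0 genes within a distance of 0.25. Its nearest were Cd14 (0.31), the phosphatase Dusp4 (0.40) and the transcription factor Maff (0.53). Il1a had 0 as well, and its nearest were the surface molecule Cd83 (0.26), the chemokine Cxcl1 (0.30) and the small GTPase Gem (0.38). By contrast 45 genes lay within that distance of Pycard, led by Fdft1, the squalene synthase (0.01), Snx25 (0.02) and Usp2 (0.02). Around Casp1 there were 40, led by Fv1 (0.01), Mtfmt (0.02) and H6pd (0.06). Fv1 read 4.20 with intralipid, below the floor. Around Il1rn there were 46, led by Zbtb10 (0.04), the glucose transporter Slc2a1 (0.04) and Gfpt2 (0.05), an enzyme of hexosamine synthesis. Zbtb10 passed the floor with intralipid only, at 5.75, so its pattern rests partly on values near background. Casp4 had 17, led by Tnip1, an inhibitor of NF-kB signalling (0.08), Cdc42ep2 (0.09) and Fnbp1l (0.09). Il1b passed the floor only on the array where it was high, so its nearest genes are not given.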

How the data were processed

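The deposited table holds 1 log2 value per probe set and array, which the authors computed with RMA, a method that corrects background, normalizes arrays and summarises probes, per the submitters' processing notes. No RMA version, chip definition or filter is given in the sources used here. RNA was pooled before hybridisation and used where its integrity number exceeded 8, per the labels' protocols. The values were used as deposited, with Python 3.11.15, pandas 2.3.3 and, for the alternative normalizations, limma 3.58.1. Genes were named from probe sets with 1 symbol (21789 of 35556), and the probe set with the highest mean was taken. The floor, the 2-fold rule and their counts over all genes are described with the results. The robust SD is that of the central 68% of genes in 1 of 20 expression bins. Named were all 9 genes, called genes of the pathway lists and, except for Il1b, the 3 genes most like each called gene. Other pathway genes were named as examples after their values were seen. Sets of genes and motifs were chosen with earlier results of these data known. Sequences are from RefSeq (GRCm38.p6). The build behind the array is not given in the sources used here, so genes carry no coordinates.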

Additional observations from a re-analysis of the deposited data

How the results depend on the processing

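With 1 array per group, leaving out a replicate was not possible and no spread between cultures is known. No paired analysis was possible because each group has 1 array. The 27 log2 differences of the 9 genes moved by at most 0.07 under centring on medians, quantile or cyclic loess normalization, and the same members were called in all 3 comparisons under these 3 settings. The mean over probe sets could not move them, since all 9 have a single one. In the order intralipid against PBS, intralipid plus ANGPTL4 against intralipid, and intralipid plus ANGPTL4 against PBS, a 3-fold threshold called 2, 1 and 1 members (Nlrp3 and Il1a, Il1a, and Nlrp3) and 1, 1 and 0 of the other pathway genes. A 1.5-fold threshold called 6, 12 and 5 of the other pathway genes. Over all genes it called 509 higher and 560 lower, 831 and 498, and 237 and 53, and the 3-fold threshold 117 and 20, 59 and 102, and 25 and 0. With the floor at the 75th percentile, 1 member (Casp4) was called against PBS with ANGPTL4, and Nlrp3 and Il1b were not, because their values with ANGPTL4 lay below it. Of the other pathway genes 3 were then called with ANGPTL4 against intralipid and 0 against PBS. Without a floor the last count was 2 (Mefv and Gbp5).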

Other observations

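Guanylate-binding proteins and immunity-related GTPases, which act on intracellular vacuoles and bacteria and give caspase-11 access to lipopolysaccharide, were looked at after the values of the genes above had been seen. Of 13 symbols 8 were measured and 3 passed the floor. In the order PBS, intralipid, and intralipid plus ANGPTL4, Gbp3 read 6.41, 6.24 and 7.06 on the log2 scale, Gbp7 6.14, 5.71 and 6.36, and Irgm1 6.87, 6.26 and 7.11. Each was lowest on the intralipid array and highest with ANGPTL4. Among differences of any size, these were also the more common directions over all genes past the floor. None of these 3 reached 2-fold in any of the 3 comparisons, and the largest difference was that of Irgm1, 1.81-fold between both lipid arrays. Gbp5, a guanylate-binding protein reported to promote NLRP3 assembly, read 3.00, 3.00 and 4.45, below the floor throughout.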
